A study of Mus musculus with 12 samples.

Results

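The myelin genes of mature oligodendrocytes were followed in sorted cells of the mouse dentate gyrus. The set held 9 genes listed for their known roles, Mbp, Mobp, Cnp, Mag, Mog, Cldn11, Mal, Ermn and Trf, of 50600 genes in the counts table. All 9 were found in the table. The animals were mice 6 to 9 weeks old that carried a Nestin-GFP reporter, in which a Nestin promoter drives green fluorescent protein, mainly in neural stem cells and progenitors. All cells came from a live gate negative for CD31 (endothelium), CD45 (immune cells) and for O1 and O4, lipid antigens of the oligodendrocyte surface. Within this gate, astrocytes were GFP-negative and GLAST-positive, progenitors were GFP-positive and GLAST-negative, and stem cells were positive for both, GLAST being a glutamate transporter. Each of the 3 cell types had 4 libraries of 50 cells, called here astrocyte a to d, progenitor a to d and stem cell 1 to 4. The study calls the libraries of a cell type biological replicates and states that a single mouse brain per replicate is enough. The labels tie no library to an animal.

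Oligodendrocytes wrap axons in sheets of membrane that are compacted into myelin. Mbp and Mobp encode basic proteins that hold the cytoplasmic faces of compact myelin together, and Cnp encodes an enzyme that keeps cytoplasmic channels in myelin open. Mag and Mog are adhesion molecules of the innermost and outermost membrane, Cldn11 forms the tight junctions of the sheath, Mal is a raft proteolipid, Ermn a late cytoskeletal protein and Trf the iron carrier transferrin. In this lineage Cnp is already made by precursors, whereas Mag, Mog, Mobp and Ermn appear as the cells mature.

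The promoters of Mobp and Cnp are shown because Mobp had its highest mean and Cnp its lowest mean in astrocytes. RefSeq sequence on GRCm38.p6 held a promoter for 7 of the 9 genes (9 promoters, 250 bases before to 50 bases after a transcription start). Capitals mark ACAAAG, a core recognised by SOX factors, and CTGGNAC, a core recognised by MYRF, searched on both strands, so that CTTTGT and GTNCCAG are their reverse strands. The Mobp promoter lies at chr9:120149492-120149791 and the Cnp promoter at chr11:100574689-100574988, both on the plus strand.
Mobp: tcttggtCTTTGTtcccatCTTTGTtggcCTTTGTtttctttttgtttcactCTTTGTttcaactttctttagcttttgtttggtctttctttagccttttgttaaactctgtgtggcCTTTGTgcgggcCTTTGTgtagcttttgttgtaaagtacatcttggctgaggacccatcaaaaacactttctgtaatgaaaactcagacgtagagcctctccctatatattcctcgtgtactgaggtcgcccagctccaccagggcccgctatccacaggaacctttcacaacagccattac
Cnp: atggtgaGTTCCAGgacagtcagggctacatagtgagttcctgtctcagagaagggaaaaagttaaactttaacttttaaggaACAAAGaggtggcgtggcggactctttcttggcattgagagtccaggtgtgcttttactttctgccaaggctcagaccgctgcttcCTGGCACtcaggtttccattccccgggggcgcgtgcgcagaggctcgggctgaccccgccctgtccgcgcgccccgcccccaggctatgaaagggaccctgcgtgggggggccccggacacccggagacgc
The Mobp window held 6 matches to ACAAAG and 0 to CTGGNAC, and the Cnp window held 1 and 2. Counted by gene, 3 of the 7 (Mag, Mobp and Cnp) held ACAAAG and 3 (Mag, Cnp and Mog) held CTGGNAC, against 18.7% and 19.3% of 32851 promoters of the same length. Mag has 3 of the 9 windows, and 2 of them overlap and hold the same matches. TATAAA was in 0 of the 9, against 13.6% of all. A match describes letters only and is not a bound site.

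Total counts on genes were 5031166 to 12535028 per library. The authors deposited raw counts, and levels are given here as CPM, counts per 1000000 with TMM-scaled library sizes. A floor of 3 counts was worth 0.207 to 0.653 CPM and covers counting error only, since no molecular identifiers were used. Transcripts lost before counting are not covered, so a fold against this floor is not a lower bound for the cells. The astrocyte libraries had 9430 to 11655 genes with at least 10 counts, the progenitor libraries 16389 to 17015 and the stem cell libraries 13368 to 14175. Of the sort genes, Slc1a3, which encodes GLAST, stood at 2180 to 3365 CPM in the GLAST-negative progenitors, 3878 to 6144 in astrocytes and 6769 to 9192 in stem cells. Nes, which encodes Nestin, had 0 to 4 counts in stem cells, 1 to 291 in progenitors and 0 in astrocytes. Ptprc, which encodes CD45, had 0 counts in all 12 libraries.

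The 9 genes were not detected together in any library, and the data hold no library of mature oligodendrocytes for comparison. In no library did all 9 genes reach 10 counts. The number that did was 3 to 6 in astrocytes, 4 or 5 in progenitors and 4 to 6 in stem cells. Cnp and Mbp had at least 10 counts in all 12 libraries, Mobp in 10, Trf in 8, Mal in 5, Mog in 3, Ermn and Mag in 2 each and Cldn11 in 0. Opalin, a membrane protein of mature oligodendrocytes named here after its values were seen, had 0 counts in every library. Some other genes of myelin membrane were abundant, such as Cmtm5 and Cd9, with means of 457 to 1199 and 269 to 482 CPM over the 3 cell types. A few abundant genes carried the set, and most of the others appeared in isolated libraries. Fewer cells of a type and less RNA per cell cannot be told apart in libraries of pooled cells.

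**Figure D1:**
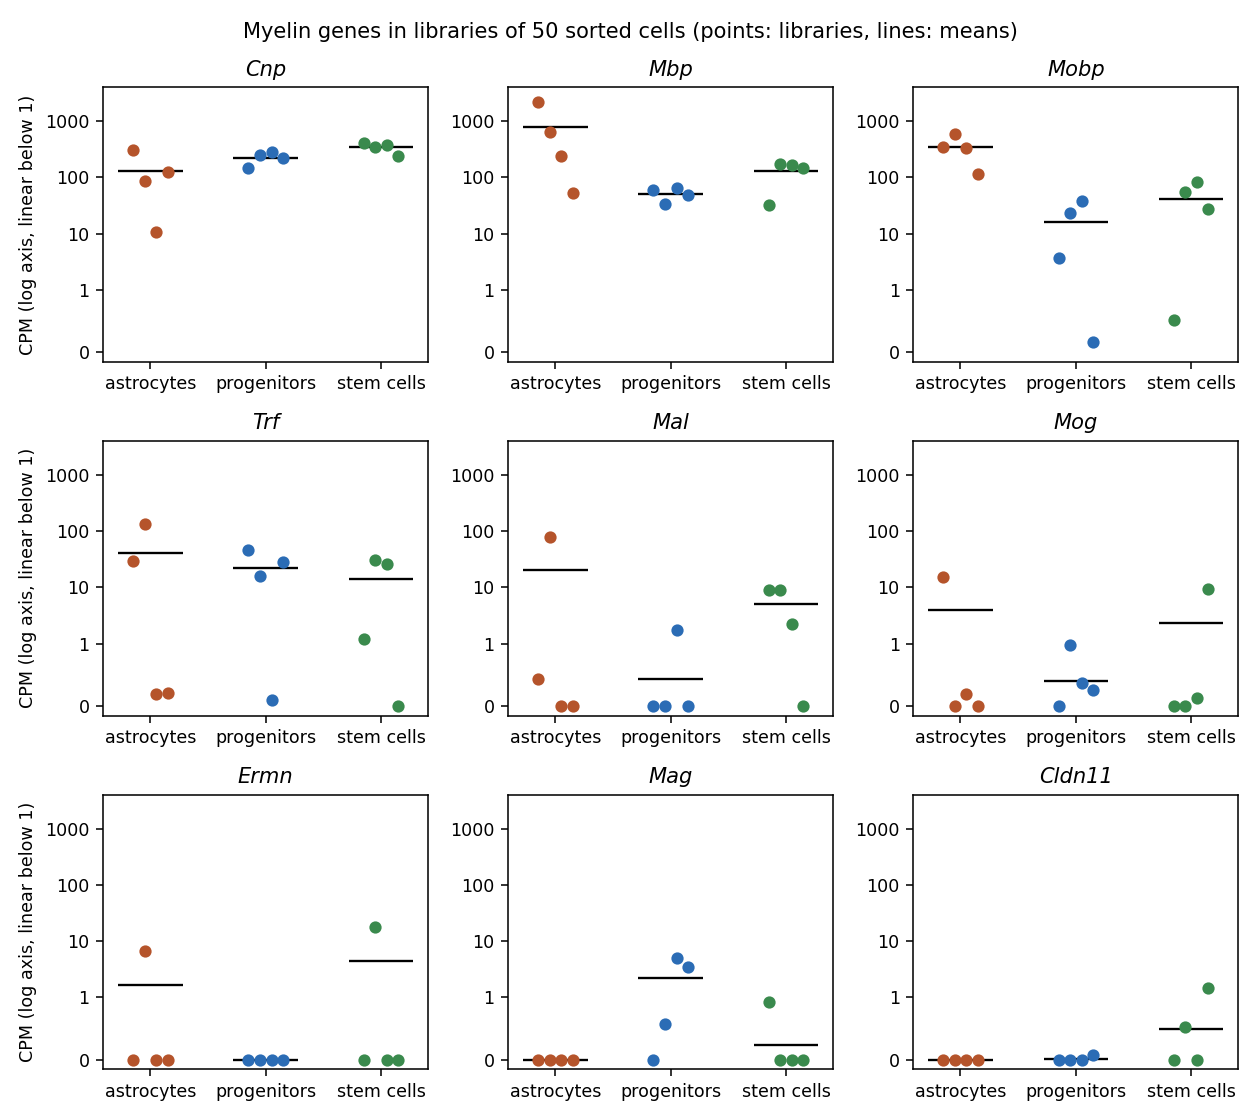
CPM of each of the 9 myelin genes (vertical axis, log scale that is linear below 1) in the 3 cell types (horizontal axis), with a point for each of the 4 libraries and a line at the mean. Cnp and Mbp are above 10 CPM in all 12 libraries, whereas Mal, Mog, Ermn, Mag and Cldn11 are at 0 in 5 to 10 libraries each.

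Levels of different genes were compared per length, as CPM per kb of exon. Over the 12 libraries the order of the means was Cnp (64.3), Mbp (37.7), Mobp (19.5), Trf (7.82), Mal (3.07), Mog (1.30), Ermn (0.561), Mag (0.202) and Cldn11 (0.0933 CPM per kb). For each neighbouring pair in this order, the mean difference within libraries was smaller than its SD. Cnp against Mbp, for example, differed by 26.5 ± 77.1 CPM per kb (SD, n = 12 libraries), with Cnp higher in 9 of 12. The order also depended on the cell type. In progenitors the first gene was Cnp, at 61.8 ± 16.0 CPM per kb (SD, n = 4), followed by Trf at 6.79 ± 5.92 and Mbp at 6.10 ± 1.65. In stem cells it was again Cnp, at 94.6 ± 19.5, followed by Mbp at 15.4 ± 7.81. In astrocytes the means were 91.7 ± 114 for Mbp, 50.0 ± 27.8 for Mobp and 36.4 ± 34.9 for Cnp.

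Cnp made up 65.1% to 84.3% of the summed level per length of the 9 genes in progenitors and 67.9% to 93.6% in stem cells. In astrocytes its part ranged from 3.70% in astrocyte c to 59.5% in astrocyte d. Mbp made up 10.7% to 62.7% of the sum in astrocytes and at most 18.7% in the other libraries. The gene with the highest level per length was Cnp in all progenitor and stem cell libraries and in astrocyte d, Mbp in astrocyte a, and Mobp in astrocytes b and c. Astrocytes therefore shared no common make-up of the set.

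**Figure D2:**
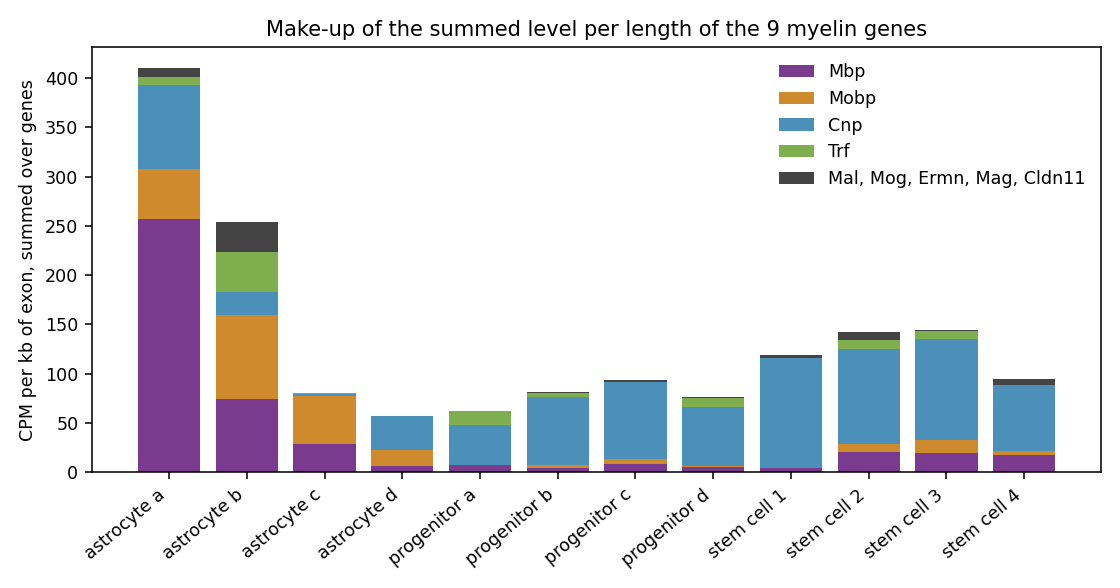
Summed level of the 9 myelin genes (vertical axis, CPM per kb of exon) in each of the 12 libraries (horizontal axis), with stacked colours for the genes. The blue Cnp segment is the largest in all progenitor and stem cell libraries, while astrocyte a, with a sum of 411 CPM per kb, is mostly Mbp and astrocytes b and c have Mobp as their largest segment.

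Mbp lies on chromosome 18 and has 16 transcripts in GENCODE M21, some of which (the golli forms) are also made outside oligodendrocytes, and gene counts cannot separate them. It stood at 2181, 632, 242 and 51.8 CPM in astrocytes a to d. In progenitors a to d it stood at 58.7, 33.7, 65.9 and 48.5 CPM, and in stem cells 1 to 4 at 32.1, 171, 169 and 150 CPM. Astrocytes spread over a 42.1-fold range and progenitors over a 1.95-fold range. Astrocyte d lay within the progenitor range, and stem cell 1 lay below all 4 progenitor libraries. The means were 777 ± 967 CPM in astrocytes, 51.7 ± 13.9 in progenitors and 130 ± 66.2 in stem cells (SD, n = 4 each).

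Mobp (chr9:120149707-120181484, plus strand, on GRCm38 as all gene positions here) stood at 343, 581, 330 and 115 CPM in astrocytes a to d. In progenitors it stood at 3.66, 23.1, 37.6 and 0.172 CPM, the last being 2 counts. In stem cells it stood at 0.513, 55.2, 84.2 and 26.9 CPM, the first being 5 counts. Every astrocyte library was above every library of the other cell types. Progenitors and stem cells overlapped and each held a library near the floor. The means were 342 ± 190 CPM in astrocytes, 16.1 ± 17.5 in progenitors and 41.7 ± 36.1 in stem cells (SD, n = 4 each).

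Cnp (chr11:100574904-100591729, plus strand) stood at 310, 85.6, 10.8 and 123 CPM in astrocytes a to d. In progenitors it stood at 146, 250, 283 and 221 CPM, and in stem cells at 406, 353, 376 and 243 CPM. Unlike Mbp and Mobp, Cnp had its lowest 3 values in astrocytes, while astrocyte a was above all progenitor libraries. Stem cells and progenitors each stayed within a 2-fold range, 1.67-fold and 1.94-fold. The means were 132 ± 127 CPM in astrocytes, 225 ± 58.3 in progenitors and 344 ± 70.9 in stem cells (SD, n = 4 each). Of its exonic bases, 4.23% overlap a gene on the opposite strand, and counting ignored strand.

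Trf (chr9:103204001-103230444, minus strand) was either clearly present or close to absent. It had 136, 731, 1 and 1 counts in astrocytes a to d, 674, 192, 1 and 324 in progenitors a to d, and 12, 232, 208 and 0 in stem cells 1 to 4. Its means were 41.0 ± 63.6 CPM in astrocytes, 22.5 ± 19.7 in progenitors and 14.3 ± 16.0 in stem cells (SD, n = 4 each). Each cell type held libraries of both kinds. Another gene on the same strand, Gm20425, overlaps 63.5% of the exonic bases of Trf and had 131 to 1344 counts per library, so that reads of the shared bases could not be assigned to either.

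The remaining 5 genes were rare. Mal (chr2:127633226-127656695, minus strand) had 436 counts in astrocyte b, at 80.0 CPM, and 2, 0 and 0 in the other astrocytes. In stem cells it had 87, 70, 18 and 0 counts, at 8.93, 9.14, 2.24 and 0 CPM, and among progenitors only progenitor c had any, with 19. Mal thus had at least 10 counts in 3 stem cell libraries and in 1 library of each other type. Ermn (chr2:58045113-58052864, minus strand) was detected in 2 libraries, astrocyte b with 36 counts (6.60 CPM) and stem cell 2 with 137 (17.9 CPM). It had 0 counts in all progenitor libraries. Against their floor of 3 counts per library the stem cell mean was 18.2-fold higher and the astrocyte mean 6.71-fold higher. Each fold rested on the lone positive library of its cell type. Both Ermn-positive libraries were also the highest of their cell type in the summed level of 8 endothelial genes, at 81.6 CPM in astrocyte b and 149 CPM in stem cell 2, against 3.70 to 16.8 and 0.746 to 7.80 CPM in the other libraries of those types. In astrocyte b this sum was mostly Esam, a junction protein, at 73.9 CPM, while Cldn5, Ly6c1 and Cdh5 had 0 counts in every astrocyte library. In stem cell 2, Cldn5, Flt1 and Ly6c1, markers of brain endothelium, had 279, 330 and 333 counts. Progenitor a, which held no Ermn counts, had an endothelial sum of 76.3 CPM, close to that of astrocyte b. The part of endothelial RNA in the Ermn counts was not tested.

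Mog (chr17:37010743-37023398, minus strand) had 71, 0, 1 and 0 counts in astrocytes, 0, 12, 4 and 3 in progenitors and 0, 0, 1 and 50 in stem cells. Its highest libraries were astrocyte a at 15.4 CPM and stem cell 4 at 9.29 CPM, neither of which held Ermn. Mag (chr7:30899176-30914873, minus strand) had another distribution, with 0 counts in every astrocyte library, 0, 7, 54 and 40 in progenitors and 9, 0, 0 and 0 in stem cells. Against the astrocyte floor the progenitor mean of 2.23 ± 2.34 CPM (SD, n = 4) was 3.70-fold higher. Cldn11 (chr3:31149920-31164324, plus strand) had at most 8 counts in any library, in stem cell 4, with 4 in stem cell 2 and 1 in progenitor d. Absence of these genes from a library means that they were not detectable at this depth.

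The first comparison asked how the GLAST-positive, GFP-negative astrocytes differed from the GFP-positive, GLAST-negative progenitors. Of the 9 genes, 4 passed the count filter (10 or more counts in 4 or more libraries), and 1 passed the test (edgeR quasi-likelihood test, Benjamini-Hochberg adjusted p under 0.05). In this comparison 8.63% of the 14806 genes tested were called, 2.45% as higher in astrocytes. Mbp was higher in astrocytes by 3.85 on the log2 scale (SE 0.92, adjusted p = 0.026 with edgeR). Its call was lost whenever a progenitor library was left out, with edgeR adjusted p of 0.073 to 0.086, and its log2 fold change was 2.58 without astrocyte a (edgeR adjusted p = 0.049). Mobp was the gene without overlap between the groups, which 5.98% of genes showed with astrocytes higher, and its difference of 4.38 (SE 1.22) had an edgeR adjusted p of 0.053. DESeq2, which called 16.4% of all genes, called Mobp as well (adjusted p = 0.0012). So did edgeR on counts thinned to the smallest library, without progenitor d and without astrocyte d, with adjusted p of 0.0443, 0.0496 and 0.0499. Cnp differed by -0.82 (SE 0.74, edgeR adjusted p = 0.64) and Trf by 0.85 (SE 1.81, edgeR adjusted p = 0.87). The median over the 4 genes was 2.35, beside 0.03 over all genes tested.

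The second comparison set progenitors against stem cells, both GFP-positive. Here 5 of the 9 genes were tested and 0 were called by edgeR, beside 8.6% of 15427 genes tested. At an unadjusted p under 0.05 there were 2 of the 5, beside 21.2% of all, and DESeq2 called 1, Mbp (adjusted p = 0.039), beside 15.5% of all. All 5 genes overlapped between the groups, whereas 19.3% of all genes did not. Mbp differed by -1.37 (SE 0.47, edgeR adjusted p = 0.11) and by -1.69 without stem cell 1, where the edgeR adjusted p was 0.010. That was the call in 1 of 8 fits that left out a library, and the edgeR adjusted p reached 0.27 in the others. Of 6 other settings with all libraries, 1 called Mbp, and the edgeR adjusted p reached 0.75. Cnp differed by -0.64 (SE 0.24, edgeR adjusted p = 0.15), the smallest SE of the set. Mobp differed by -1.39 (SE 1.37, edgeR adjusted p = 0.65) and Mal by -3.54 (SE 1.94, edgeR adjusted p = 0.35). Trf differed by 0.63 (SE 1.54, edgeR adjusted p = 0.88). The median over the 5 genes was -1.37, beside 0.04 over all genes tested.

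The third comparison set astrocytes against stem cells, which share GLAST. Again 5 genes were tested and 0 were called by edgeR, beside 0.0468% of 12831 genes. At an unadjusted p under 0.05 there were 2, beside 9.55% of all, and DESeq2 called 1, Mobp (adjusted p = 0.036), beside 4.95% of all. Mobp was again without overlap, which 3.75% of genes showed with astrocytes higher. It differed by 3.02 (SE 1.02, edgeR adjusted p = 0.29). Mbp differed by 2.54 (SE 0.92, edgeR adjusted p = 0.34), and by 1.23 without astrocyte a. Cnp differed by -1.41 (SE 0.72, edgeR adjusted p = 0.59). Mal and Trf differed by 1.98 (SE 2.22, edgeR adjusted p = 0.87) and 1.50 (SE 1.94, edgeR adjusted p = 0.88), and both values turned negative without astrocyte b. Each cell type entered 2 of the 3 comparisons, so these are not independent of each other.

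**Figure D3:**
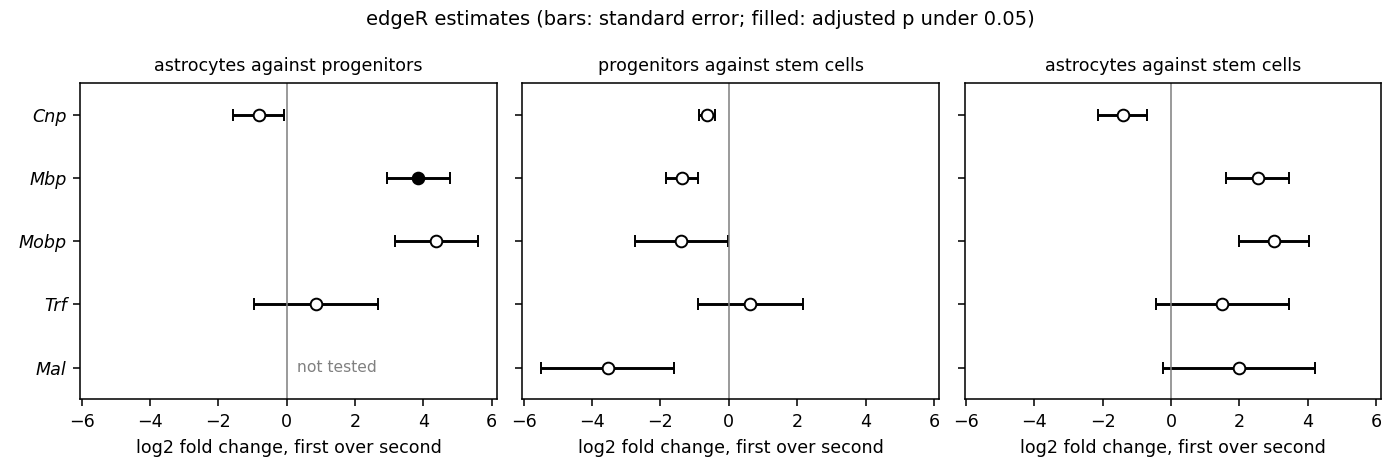
Log2 fold change (horizontal axis, first cell type over second) of the 5 myelin genes that passed the filter in at least 1 comparison (vertical axis), with bars of 1 standard error and filled points for an adjusted p under 0.05. Mbp in astrocytes against progenitors, at 3.85, is the filled point, and the bars of Trf span zero in all 3 panels.

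Some genes of mature neurons, a cell type outside all 3 sorts, also had their highest mean in astrocytes. Of 8 such genes, 5 did so, whereas Rbfox3, Grin1 and Gad1 had theirs in progenitors, at 29.6, 32.5 and 24.6 CPM. Their summed level, of which Camk2a was 1897 of 2463 CPM in the astrocyte means, was 692 to 5369 CPM in astrocytes, 204 to 295 in progenitors and 249 to 462 in stem cells. Gad2, an enzyme of inhibitory neurons, had 0 counts in all stem cell libraries, and no other gene of the list was at 0 throughout a cell type. Camk2a, a kinase of excitatory neurons, stood at 4138, 1479, 1513 and 459 CPM in astrocytes a to d, at 44.9 to 72.5 CPM in progenitors and at 181 to 406 CPM in stem cells. Astrocyte a was thus the highest library for Camk2a as for Mbp, and astrocyte d the lowest astrocyte for both. Mobp was highest in astrocyte b, at 581 CPM, and lowest among astrocytes in astrocyte d, at 115 CPM. Against progenitors, 2 of the 8 neuron genes were called higher in astrocytes, beside 2.45% of all genes tested. They were Camk2a, by 4.92 (SE 0.60, edgeR adjusted p = 0.0028), and Snap25, a synaptic protein, by 1.85 (SE 0.49, edgeR adjusted p = 0.042). The count was 1 without astrocyte a or any progenitor library. Over the 12 libraries the log2(CPM + 1) of Mbp and Camk2a had a Pearson r of 0.85 and that of Mobp and Camk2a 0.76, against -0.38 for Cnp and Camk2a. With Snap25 the values were lower, 0.47 for Mbp, 0.40 for Mobp and -0.49 for Cnp. These libraries share cell type and depth, so the values are descriptions. The part of neuronal RNA in the Mbp and Mobp levels was not tested.

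**Figure D4:**
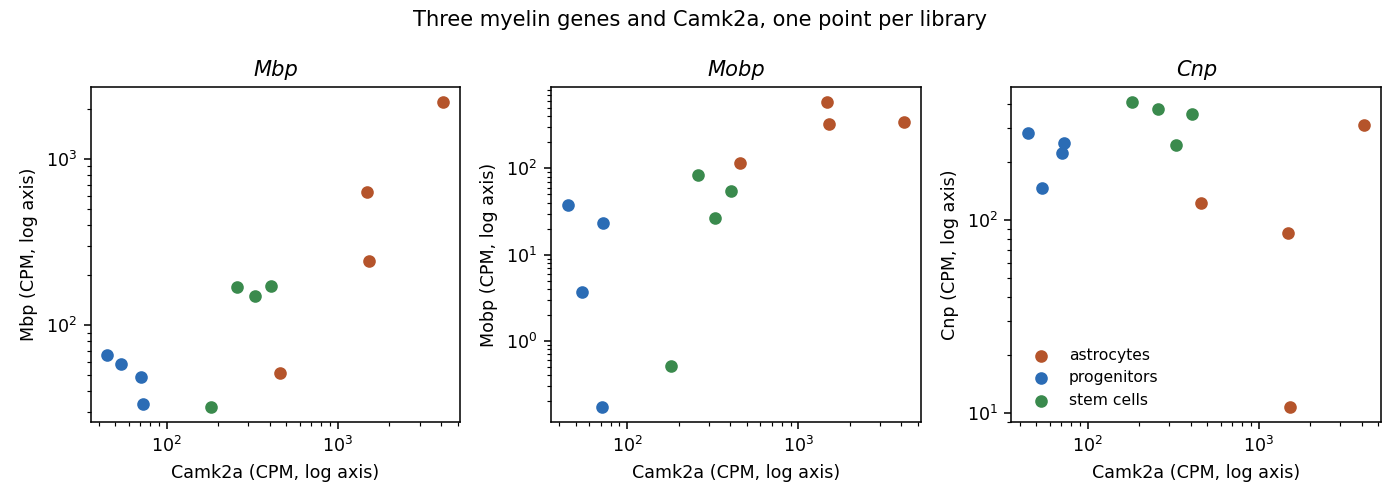
Mbp, Mobp and Cnp (vertical axes, CPM, log scale) against Camk2a (horizontal axes, CPM, log scale), with 12 libraries as points coloured by cell type. Astrocyte a, at 4138 CPM of Camk2a, is the rightmost point in each panel and the highest for Mbp, whereas the lowest Cnp point, at 10.8 CPM, is also an astrocyte.

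Other genes of the oligodendrocyte lineage were mixed, and those of precursors had a distribution unlike that of Mbp and Mobp. All 8 listed genes of oligodendrocyte precursors were higher in every progenitor library than in every astrocyte and every stem cell library, as were 14.9% and 11.7% of all genes tested in these comparisons. By edgeR, 5 of the 8 were called lower in astrocytes, beside 6.18% of all genes, and 8 higher in progenitors than in stem cells, beside 4.95%. With genes at the floor set to their fold against it, their median log2 fold change was -4.64 in astrocytes against progenitors. In progenitors against stem cells it was 6.18 (the fitted medians were -5.59 and 7.19). Cspg4, the NG2 proteoglycan, averaged 398 ± 129 CPM in progenitors, 4.68 ± 4.22 in astrocytes and 1.50 ± 1.63 in stem cells (SD, n = 4 each). Of 6 genes of committed precursors, 5 were tested in each of these comparisons. By edgeR, 3 were called lower in astrocytes than in progenitors, beside 6.18% of all genes. In progenitors against stem cells 3 were called higher in progenitors, beside 4.95%. Among them was Gpr17, a receptor of cells about to differentiate, at 319 CPM in progenitors and at most 16.0 CPM elsewhere. Of the others, Bcas1 was not called in either comparison (edgeR adjusted p = 0.87 and 0.061) and Enpp6 had 0 counts in all astrocyte and progenitor libraries. Itpr2, a calcium channel also made by astrocytes, was higher in astrocytes by 1.65 (SE 0.24, edgeR adjusted p = 0.0070).

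Of 5 genes of myelin lipid synthesis, 3 were higher in every progenitor library than in every astrocyte and every stem cell library, beside 14.9% and 11.7% of all genes. The others were Aspa, which releases acetate for lipids, at 0.892 CPM in progenitors and 7.29 in stem cells (edgeR adjusted p = 0.097), and Cers2, a ceramide synthase, at 195, 168 and 176 CPM in astrocytes, progenitors and stem cells. Ugt8a, which makes the galactocerebroside recognised by O1, had 400, 296, 635 and 922 counts in progenitors a to d and at most 1 count in each of the other 8 libraries. The progenitor mean was 78.3-fold above the floor of 3 counts in astrocytes and 116-fold above that in stem cells. Ugt8a was called in both comparisons (edgeR adjusted p = 0.0077 and 0.00080). Gal3st1, which sulphates galactocerebroside into the O4 antigen, had 53 to 278 counts in progenitors, 0 in astrocytes and 19 counts in stem cell 1 alone. Fa2h, which hydroxylates the fatty acids of these lipids, had 50 to 454 counts in progenitors and 0 in all other libraries. Of the 5 lipid genes, 3 were called lower in astrocytes than in progenitors, beside 6.18% of all genes, and 1 without progenitor c. In progenitors against stem cells 2 were called higher in progenitors, beside 4.95% of all genes. All these libraries had been gated as O1- and O4-negative.

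Among 8 transcription factors of the lineage, 2 were called lower in astrocytes than in progenitors, beside 6.18% of all genes, and 4 when astrocyte a was left out. In progenitors against stem cells 3 were called higher in progenitors, beside 4.95% of all genes. Sox10, which directs the whole lineage, had 1359 to 2675 counts in progenitors and at most 29 elsewhere. Not all of these factors were highest in progenitors. Tcf7l2 averaged 137 CPM in astrocytes, 66.9 in progenitors and 109 in stem cells. It was called in neither comparison (edgeR adjusted p = 0.38 and 0.11). Nkx2-2, also not called, and Nkx6-2, which was not tested, had their highest means in astrocytes too. Myrf, the factor of late myelination, had 13 to 58 counts in progenitors, at most 2 in astrocytes and at most 10 in stem cells (edgeR adjusted p = 0.052 against astrocytes), and is named here after its values were seen. Of 9 other membrane proteins of myelin, 2 were called in each of these comparisons, beside 8.63% and 8.6% of all genes. Tspan2, a tetraspanin, was 25.9-fold higher in progenitors than the astrocyte floor of 3 counts. Pllp, plasmolipin, was higher in progenitors than in stem cells by 5.26 (SE 0.90, edgeR adjusted p = 0.0066). Cmtm5, also an astrocyte gene, had the opposite direction, with 1199 ± 128 CPM in astrocytes, 457 ± 84.6 in progenitors and 1191 ± 168 in stem cells (SD, n = 4 each). Of 16 further oligodendrocyte genes, Gjc3, a connexin, had 1609 to 2886 counts in progenitors and at most 10 elsewhere and was called in both comparisons. Car2, a carbonic anhydrase, was lower in progenitors than in stem cells (log2 fold change -1.86, SE 0.21, edgeR adjusted p = 0.00096). Between astrocytes and stem cells edgeR called 0 genes of any lineage list, beside 0.0468% of all genes. The unadjusted edgeR p was under 0.05 for 1 of 6 membrane genes tested, 2 of 6 other oligodendrocyte genes and 1 of 2 committed precursor genes. Over all genes this share was 9.55%. DESeq2 called 1, 0 and 1 in these lists, beside 4.95% of all.

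**Figure D5:**
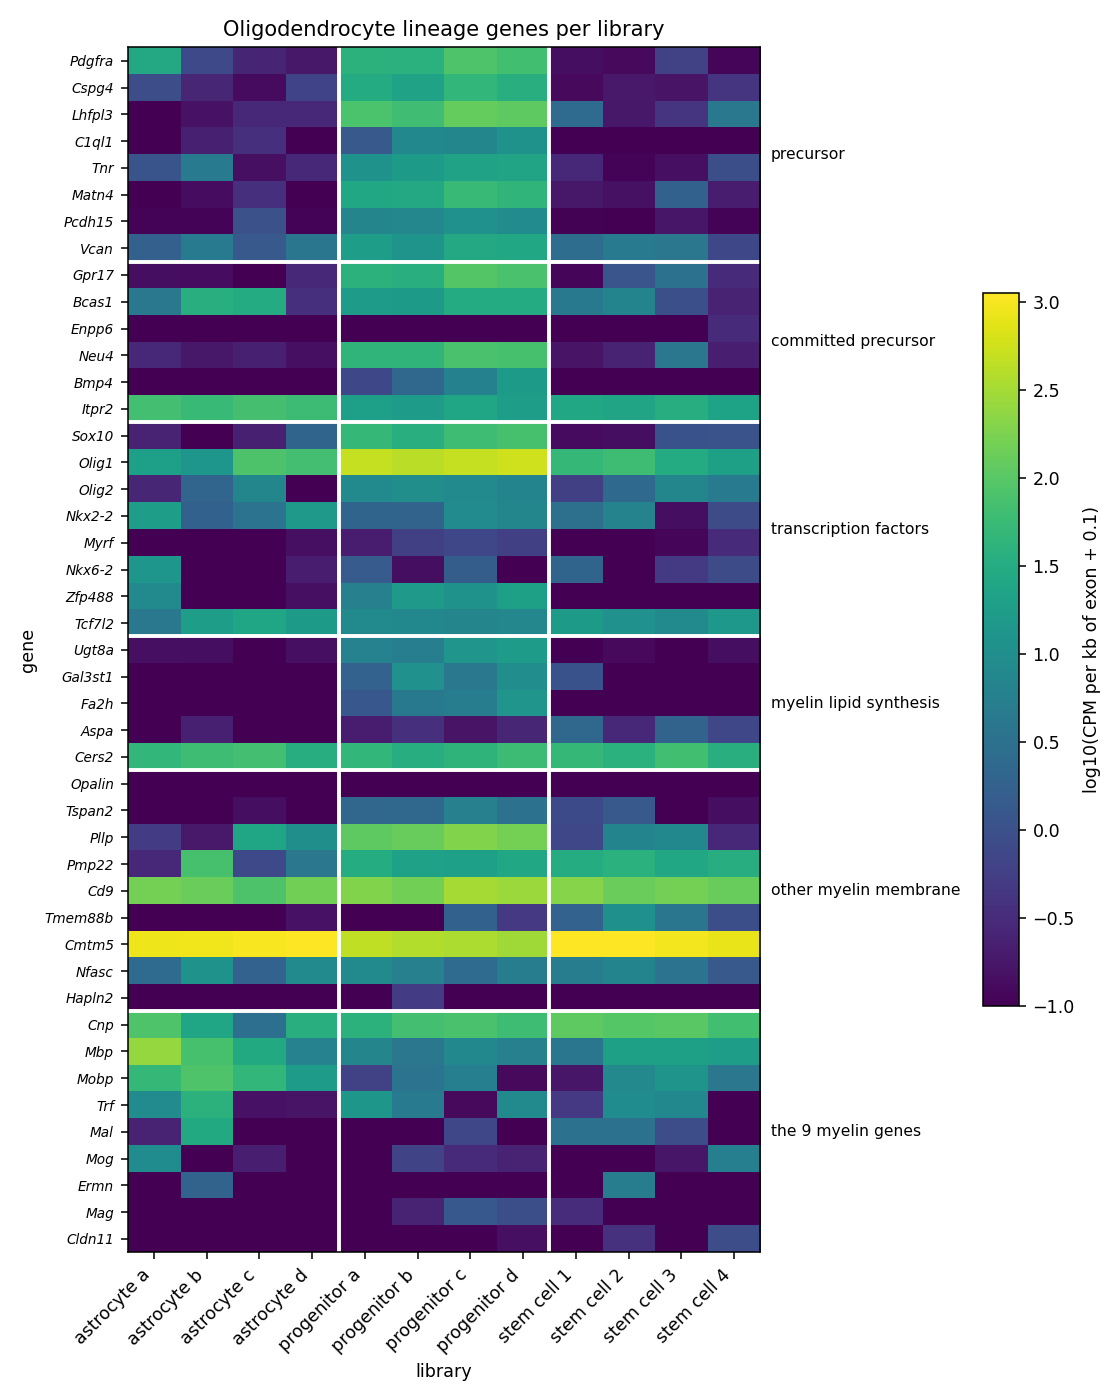
Level of oligodendrocyte lineage genes (rows, grouped by stage or role) in the 12 libraries (columns), as log10 of CPM per kb of exon plus 0.1, from dark (low) to yellow (high). The precursor rows at the top are brightest in the 4 progenitor libraries, whereas the 9 myelin genes at the bottom show no block of libraries in which all are bright.

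The genes whose levels were most like the set over the 12 libraries, by the Pearson correlation of log2(CPM + 1) with the mean of the 9 genes among 16114 genes, were Kcnab2 (r = 0.92), Gm10039 (0.89), Rasl10a (0.88), Uhrf1bp1l (0.88), Sgsh (0.87), Ptk2b (0.87), Bcl2l2 (0.86) and Rab15 (0.86). The libraries share cell type and depth, and no p is given. Kcnab2, a subunit of potassium channels, averaged 115 ± 127 CPM in astrocytes, 7.50 ± 4.72 in progenitors and 22.7 ± 15.4 in stem cells (SD, n = 4 each). Within the set itself, the mean followed Mbp (r = 0.80), Ermn (0.68) and Mal (0.65) more than Cnp (0.17) or Mag (-0.34). Each gene is part of that mean, which raises its r, and Ermn and Mal had 0 counts in 10 and 6 libraries. The ranking was not stable, since 5 of these 8 genes were kept with a pseudocount of 0.1 and 0 with Spearman correlation.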

How the data were processed

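RNA of 50 sorted dentate gyrus cells per library was amplified with the SMARTer v4 kit and sequenced, in 12 libraries of 3 cell types. The authors trimmed reads (quality minimum of 20), removed ribosomal, mitochondrial and PhiX reads, aligned with HISAT2 2.0.6 to GRCm38.p4 and counted them per gene of GENCODE M14 with unstranded featureCounts, tools that the submitters' processing notes also name. The deposited values are raw counts per gene, with no normalization. Amplified copies of a molecule are counted separately, and strandless counting mixes overlapping genes.

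From these counts, CPM were computed with TMM factors over all 12 libraries, and CPM per kb with exon lengths of GENCODE M21. Of 50600 identifiers, 50376 matched a symbol. For each pair of cell types edgeR 4.0.16 (R 4.3.3) was run (TMM, glmQLFit and glmQLFTest, 10 or more counts in 4 or more of 8 libraries, Benjamini-Hochberg threshold of 0.05 over all genes tested). DESeq2 1.42.0, DESeq2-type size factors, other count filters, thinned counts, all 12 libraries in one fit and each library left out in turn (10 or more counts in 3 or more libraries) were alternatives. The SE given for edgeR was the size of the log2 fold change over the square root of its F statistic. A gene with no more than 3 counts in any library of a cell type was at the floor there. The tests were checked on simulated data. Python 3.11.15 with pandas 2.3.3 was used for summaries. Replicate libraries of a cell type differed by more than sampling noise (chi-square over degrees of freedom 52.5 or more), so each was counted.

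The 9 genes and all gene lists were chosen with earlier results of these data known. Genes named were the 9, the sort genes, at most 3 called genes per list and comparison, highest markers of other cell types and the 8 genes most like the set. Some genes of the lists that were not called are named as well. The astrocyte and progenitor columns name the cell type alone, so their letters are arbitrary. A gene of the membrane list is not reported here.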

Additional observations from a re-analysis of the deposited data

Results flagged for a closer look

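In 24 groups of 4 libraries (a gene in a cell type, leaving out groups at 0), a library was marked where its gap to the next exceeded Dixon's critical share of the range for 4 values, which chance exceeds in about 1 of 20 groups of continuous values. That rate does not hold where 3 libraries are at 0, since any count in the fourth is then marked, as in 5 of the 9 cases here (Mag, Cldn11, Mal in progenitor c and both for Ermn). Mbp, the basic protein of compact myelin, was low in stem cell 1 at 32.1 CPM, against 150 CPM in the next library. Mog, an outer adhesion molecule of the sheath, was high in astrocyte a at 15.4 CPM and in stem cell 4 at 9.29 CPM, with the next libraries at 0.200 and 0.124 CPM. Mal, a raft proteolipid, was high in astrocyte b at 80.0 CPM, and in progenitor c at 1.74 CPM. Ermn, a cytoskeletal protein, was high in astrocyte b at 6.60 CPM and in stem cell 2 at 17.9 CPM, all other libraries being at 0. Mag, the inner adhesion molecule, was at 0.924 CPM in stem cell 1, from 9 counts, and Cldn11, the tight junction protein, at 0.0858 CPM in progenitor d, from 1 count.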

How the results depend on the processing

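In astrocytes against progenitors, the number of the 9 genes called was 1, and became 2 with DESeq2, 2 with counts thinned to the smallest library and 0 to 2 when a library was left out. In progenitors against stem cells it was 0, and became 1 with DESeq2 and 0 to 1 when a library was left out. In astrocytes against stem cells it was 0, and became 1 with DESeq2. The summed level in progenitors was 318 CPM, and 382 CPM without TMM factors. With a library left out, the log2 fold change in astrocytes ranged from -1.26 to 1.47 for Trf against progenitors, from -0.57 to 2.16 for Trf against stem cells and from -5.02 to 2.41 for Mal against stem cells, with the lowest value each time without astrocyte b and no call. Of 186 recomputed log2 fold changes for 14 tested gene and comparison pairs, 172 kept direction and side of the threshold, 4 lost a call, 7 gained a call and 3 reversed. The cause of these changes was not tested. No paired analysis was possible because the astrocyte and progenitor columns carry no replicate numbers. With 50 cells and 4 libraries per cell type, a gene seen in 1 library cannot be placed in a cell type.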
